A study of Mus musculus with 12 samples.

Results

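Ubtd1, Otud3, Trim24, Klhl21, Zfp970, Zfp809, Arl2bp, Scarb2, Tmem215 and Serpina1b are 10 of the 26264 genes counted in glomerular RNA of a pair of BALB/c mouse substrains. They were picked because the same libraries had shown them to differ between the substrains, both in untreated mice and after adriamycin (ADR). Those substrain differences are therefore described below with no test, and tests are kept for the effect of ADR, for neighbouring genes and for genes of the same pathways. All 10 passed the filter on low counts, as did 17002 genes in all.

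ADR, the anthracycline doxorubicin, injures podocytes and causes proteinuria in susceptible mouse strains, and the study asked how the substrains differ in that response. Male mice, 8 weeks old, of BALB/cAjcl (Ajcl below) or of its relative BALB/cByJcl (ByJcl below) were used either untreated (baseline) or on Day 5 after 1 intravenous dose of 10 mg/kg ADR, with 3 libraries in each of the 4 groups. Both substrains are wild-type inbred animals with no engineered allele. Glomeruli were pulled out of collagenase-digested kidney with magnetic beads that had lodged in their capillaries, and poly(A) RNA was sequenced as paired reads. The baseline mice are labelled untreated, whether they had the saline given to control animals is not clear from the labels, and their counts came in a separate table. An effect of ADR therefore cannot be told apart from that of an injection, of elapsed time or of separate processing. Replicate 1 of the Ajcl Day 5 group was left out of every test because the study set it aside for reduced glomerular purity, and its level is still given for each gene. The labels do not say whether libraries of a group came from separate animals, so the p-values measure the spread between libraries.

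Total counts ran from 42198416 to 54687045 per library, and every ByJcl baseline library was deeper than every Ajcl baseline library. Levels are CPM, read counts relative to the size of the library, with sizes scaled by the trimmed mean of M-values (TMM), and log2 fold changes (log2FC) of the substrain comparison are ByJcl relative to Ajcl. Podocyte markers summed to between 7031 and 20650 CPM, and no podocyte, endothelial, mesangial, tubular, immune or hepatocyte marker was at 0 in all libraries. The summed level of immune markers (6 genes, among them Ptprc, Cd68 and Lyz2) was 22.6 to 42.1 CPM in Ajcl and 49.8 to 89.6 CPM in ByJcl at baseline, then 13.2 to 45.9 CPM and 56.5 to 106 CPM at Day 5. By edgeR 4 of the 6 at baseline and 3 at Day 5 had an unadjusted p under 0.05 in the substrain test, beside 1418 and 2374 of all 17002 genes. After adjustment 0 of the 6 passed at either time by edgeR, and DESeq2 called 0 and 1 (Cd68). Distal nephron markers summed at Day 5 to 722 and 973 CPM in the Ajcl libraries tested, to 1742 CPM in the Ajcl library left out, and to 90.3 to 486.5 CPM in ByJcl. Of these 4 genes 0 passed by edgeR or DESeq2, and 1 had an unadjusted p under 0.05. Mesangial and smooth muscle markers summed to 1571 to 1769 CPM in Ajcl and 1740 to 2044 CPM in ByJcl at baseline, ranges that overlap. At Day 5 they summed to 1449 to 1766 CPM and 1815 to 2243 CPM, ranges that do not. Of these 6 genes 1 passed the substrain test by edgeR, Tagln, which was higher in ByJcl at Day 5, a call that held in 2 of 11 fits with 1 library left out and in 6 of 9 other alternatives. The part that immune, tubular, mesangial or smooth muscle RNA has in the differences below was not tested.

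Ubiquitin is a small protein that is attached to other proteins through a chain of enzymes, with conjugating enzymes and ligases adding it and deubiquitinases taking it off. KRAB zinc finger proteins bind DNA, often at retroelements, and recruit a silencing complex built around TRIM28. The members fall into those groups, with Arl2bp and Scarb2 working in trafficking or at lysosomal membranes, Tmem215 encoding a transmembrane protein and Serpina1b a protease inhibitor, and several of these proteins act in most cell types rather than in the glomerulus alone.

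Among the ubiquitin genes, Ubtd1 encodes a ubiquitin-like domain protein that binds conjugating enzymes of the UBE2D family. Its level in Ajcl was 1.87, 1.78 and 1.68 CPM at baseline, and 1.56, 1.48 and 1.81 CPM at Day 5. In ByJcl it was 22.2, 23.2 and 20.6 CPM at baseline, and 23.3, 22.3 and 25.1 CPM at Day 5. The closest ByJcl and Ajcl libraries were thus about 11 times apart at baseline and 12.3 times at Day 5. Within a group the coefficient of variation (CV) was between 5.28% and 14.4%. The log2FC was 3.64 (SE 0.15) at baseline and 3.86 (SE 0.18) at Day 5. In these bulk libraries fewer cells that express a gene and less RNA per cell cannot be told apart.

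Ubtd1 lies on chromosome 19 of GRCm39 at chr19:41969667-42023088, on the plus strand, and starts 25 bases from Mms19, a gene of the cytosolic iron-sulfur assembly machinery that is read the other way. The stretch between them, chr19:41969642-41969666, is shown because both genes start beside it, with a GGGCGG motif in capitals. Letters here and below come from the GRCm39 reference, which is of C57BL/6J, and not from either BALB/c substrain.
Ubtd1-Mms19: cgcagacttcagGGGCGGggcacct
Mms19 had baseline levels of 41.8 ± 3.48 CPM in Ajcl against 46.2 ± 3.28 CPM in ByJcl (SD, n = 3 each). Its log2FC was 0.16 at baseline (adjusted p = 0.63, edgeR) and -0.18 at Day 5 (adjusted p = 0.47, edgeR), neither past the threshold of 0.05. GGGCGG, searched on both strands, occurs in the 250 bases before the start of 36.3% of 21751 GENCODE promoters, so it is a common feature.

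**Figure D1:**
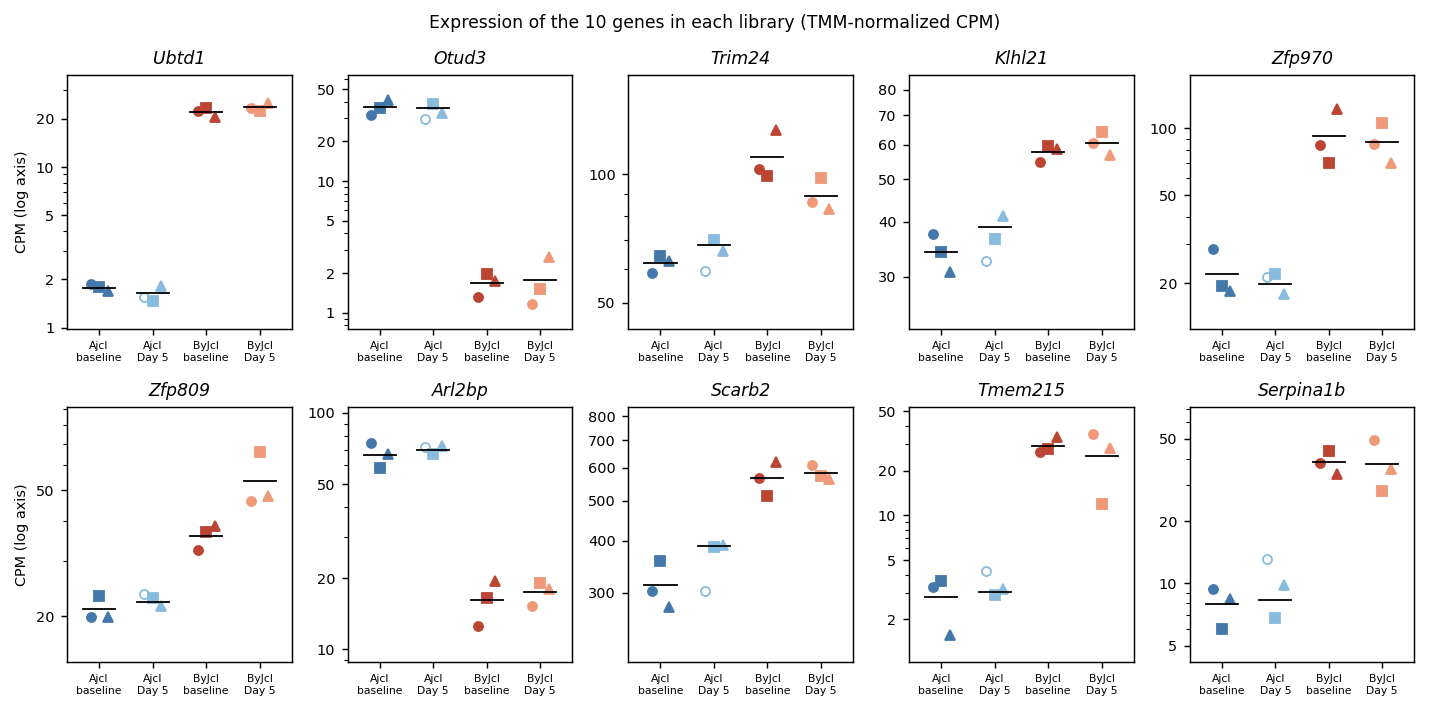
Each panel plots 1 gene, with TMM-normalized CPM on a log axis against the 4 groups. Circles, squares and triangles are replicates 1, 2 and 3, the open circle is the Ajcl Day 5 library left out of the tests, and bars are means of the other libraries. Otud3 and Arl2bp sit higher in Ajcl and the other 8 genes higher in ByJcl, with no overlap between substrains at either time.

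Otud3 encodes a deubiquitinase of the ovarian tumour (OTU) family and had the largest fold between substrain means of the 10 genes. Ajcl libraries were at 31.8, 36.0 and 41.5 CPM at baseline and 29.5, 38.4 and 33.0 CPM at Day 5. ByJcl libraries were at 1.32, 1.96 and 1.74 CPM at baseline and 1.17, 1.52 and 2.63 CPM at Day 5. The ByJcl levels were low without reaching 0, and at Day 5 they varied more (CV 42.9%) than in Ajcl (CV 10.8%). As a log2FC the difference was -4.42 (SE 0.27) at baseline and -4.30 (SE 0.28) at Day 5. In the edgeR fit this is 21.5 and 19.7 times higher in Ajcl.

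Otud3 lies at chr4:138620953-138641294 on the minus strand. The 250 bases before its annotated start, chr4:138641295-138641544, are printed with those before Arl2bp, chr8:95392978-95393227 on the plus strand, because these were the 2 members that were lower in ByJcl. Capitals mark the GC box GGGCGG, the E-box CACGTG and the CCAAT box, or their reverse complements.
Otud3: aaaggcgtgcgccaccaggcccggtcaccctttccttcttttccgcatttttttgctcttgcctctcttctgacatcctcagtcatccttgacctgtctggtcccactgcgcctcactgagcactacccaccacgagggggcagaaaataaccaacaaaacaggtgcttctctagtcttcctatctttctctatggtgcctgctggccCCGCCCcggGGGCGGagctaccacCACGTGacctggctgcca
Arl2bp: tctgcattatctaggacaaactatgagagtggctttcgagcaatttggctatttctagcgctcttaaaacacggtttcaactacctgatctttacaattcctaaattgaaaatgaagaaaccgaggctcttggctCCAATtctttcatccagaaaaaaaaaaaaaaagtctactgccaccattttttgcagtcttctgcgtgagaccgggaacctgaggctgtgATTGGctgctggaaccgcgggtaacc
The Otud3 stretch holds 2 copies of GGGCGG and 1 of CACGTG, and the Arl2bp stretch holds 2 of CCAAT. They share none of the motifs searched. Of all promoters, 6.26% hold CACGTG and 36.5% hold CCAAT. Among the 10 members, 5 hold CCAAT, 4 GGGCGG, 1 CACGTG, 2 TGACTCA (4.02% of promoters) and 0 TATAAA (11.9%). A match or its absence here is a description of the reference letters in this window.

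Trim24, a ubiquitin ligase of the tripartite motif family that also reads histone marks as a transcriptional coregulator, differed by less. It was at 58.7, 64.5 and 62.6 CPM in Ajcl and 103, 99.0 and 127 CPM in ByJcl at baseline. The Day 5 levels were 59.3, 70.2 and 66.1 CPM in Ajcl and 86.0, 98.1 and 82.9 CPM in ByJcl. The nearest libraries of the substrains were 1.53 times apart at baseline and 1.18 times at Day 5, and the log2FC was 0.84 (SE 0.11) and then 0.41 (SE 0.13). The gene spans chr6:37847644-37945380 on the plus strand.

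Klhl21 encodes a substrate adaptor of the CUL3 ubiquitin ligase with a known role in cytokinesis. Ajcl libraries were at 37.5, 34.2 and 30.8 CPM at baseline and 32.6, 36.6 and 41.3 CPM at Day 5. The ByJcl libraries were at 54.6, 59.5 and 58.6 CPM, then 60.6, 64.2 and 56.8 CPM. Every ByJcl library stood at least 1.37 times above every Ajcl library of its time point. The log2FC was 0.77 (SE 0.11) at baseline and 0.66 (SE 0.12) at Day 5. Klhl21, at chr4:152093260-152102138, is on the same chromosome as Otud3 and Tmem215.

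The KRAB zinc finger members were Zfp970 and Zfp809. Zfp970, at chr2:177156498-177183583 in a stretch of related zinc finger genes, was at 28.4, 19.4 and 18.4 CPM in Ajcl at baseline and 21.2, 21.9 and 17.8 CPM at Day 5. In ByJcl it was at 83.8, 70.0 and 122 CPM at baseline and 85.4, 105 and 69.5 CPM at Day 5. In the edgeR fit it was 4.24 times higher in ByJcl at baseline and 4.47 times at Day 5, with log2FC of 2.08 (SE 0.24) and 2.16 (SE 0.28). Its counts are uncertain, because 16.3% of the 150-base windows of its transcript, the length of 1 read, also occur in transcripts of 11 other genes. At a length of 50 bases the share is 67.7%.

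Zfp809, which silences endogenous retroviral elements early in mouse development, was the 1 member with a called change after ADR, in ByJcl. Ajcl libraries were at 19.9, 23.3 and 19.95 CPM at baseline and 23.5, 22.9 and 21.7 CPM at Day 5. In ByJcl the levels were 32.3, 36.8 and 38.6 CPM at baseline and 46.1, 66.1 and 47.9 CPM at Day 5, so each Day 5 library was above each baseline library. The log2FC between substrains was 0.79 (SE 0.14) at baseline and 1.29 (SE 0.17) at Day 5. Exons of Zfp809, at chr9:22136956-22194743 on the plus strand, overlap exons of Zfp599 and Zfp810 on the other strand, and whether counting used the strand is not given in the sources used here. Zfp810 stayed between 13.3 and 20.2 CPM and Zfp599 at most at 0.86 CPM in all 12 libraries, and neither passed a test.

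In the group of membrane and trafficking genes, Arl2bp encodes a partner of the small GTPase ARL2 that also works at cilia. It was at 74.3, 58.7 and 66.8 CPM in Ajcl at baseline and 71.9, 67.2 and 72.2 CPM at Day 5. ByJcl libraries were at 12.6, 16.5 and 19.4 CPM, then 15.3, 19.03 and 18.1 CPM. Arl2bp was thus the other member with higher levels in Ajcl, in the edgeR fit 4.07 times at baseline and 3.92 times at Day 5. The log2FC was -2.02 (SE 0.15) and -1.97 (SE 0.17). It lies at chr8:95393228-95401101 on the plus strand.

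Scarb2 encodes LIMP-2, the lysosomal membrane protein that carries glucocerebrosidase to lysosomes, and its loss in people causes a disease with glomerulosclerosis. It was at 304, 358 and 277 CPM in Ajcl at baseline and 302, 387 and 391 CPM at Day 5. The ByJcl libraries were at 569, 512.5 and 621 CPM at baseline and 609.5, 573 and 565 CPM at Day 5. The log2FC was 0.88 (SE 0.13) at baseline and 0.61 (SE 0.14) at Day 5, and the nearest libraries were 1.43 and 1.44 times apart. The gene spans chr5:92589169-92654692 on the minus strand.

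Tmem215, a transmembrane protein gene at chr4:40472180-40477168, had low levels in Ajcl and, at Day 5, the largest CV of the members in ByJcl (47.6%). Ajcl libraries were at 3.28, 3.61 and 1.58 CPM at baseline and 4.23, 2.91 and 3.18 CPM at Day 5. In ByJcl, baseline levels of 26.9, 27.9 and 33.5 CPM were followed by 35.1, 11.9 and 28.5 CPM, with replicate 2 well under the others. That library was still 2.80 times above the highest Ajcl Day 5 library. It also had the lowest summed level of the 12 libraries for glomerular endothelial markers, at 4620 CPM against 6598 and 6452 CPM in the rest of its group, and for podocyte markers, at 7031 CPM against 10300 and 8085 CPM. Their part in the Tmem215 value was not tested. The log2FC was 3.40 (SE 0.40) at baseline and 3.08 (SE 0.47) at Day 5, the largest SE among the members at both times.

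Serpina1b is 1 of several mouse copies of the alpha-1 antitrypsin gene, made mainly by liver, whose protein inhibits neutrophil elastase. It was at 9.38, 6.04 and 8.42 CPM in Ajcl at baseline and 13.1, 6.80 and 9.87 CPM at Day 5. ByJcl libraries were at 38.1, 43.4 and 33.9 CPM at baseline and 49.2, 28.0 and 35.6 CPM at Day 5. The log2FC was 2.30 (SE 0.24) and 2.20 (SE 0.28). Hepatocyte markers had a summed level of 7.74 to 24.3 CPM in Ajcl and 1.66 to 9.83 CPM in ByJcl at baseline. At Day 5 they summed to 9.67 to 36.5 CPM in Ajcl, counting the library left out, and 2.86 to 9.70 CPM in ByJcl. Of these 5 genes 3 passed the filter on low counts. The part of liver RNA in the Serpina1b values was not tested. The reference places Serpina1b at chr12:103694413-103796632 on the minus strand, a span that also contains Serpina1d.

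The copies are so alike that the counts of each are uncertain. Over 1239 coding bases, Serpina1b is 97.0% identical to Serpina1a, 96.6% to Serpina1c, 96.5% to Serpina1d and 96.3% to Serpina1e. Of the 150-base windows of the Serpina1b transcript, 18.4% occur in another gene, mostly Serpina1a. The 60 coding bases from position 1114 to 1173, counted from the A of the start codon, are shown because the copies differ most around there, with capitals at bases that differ from Serpina1b.
Serpina1b: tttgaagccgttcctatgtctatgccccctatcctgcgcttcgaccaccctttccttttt
Serpina1a: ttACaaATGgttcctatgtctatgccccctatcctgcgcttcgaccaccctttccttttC
Serpina1c: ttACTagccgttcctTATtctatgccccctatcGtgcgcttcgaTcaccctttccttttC
Serpina1d: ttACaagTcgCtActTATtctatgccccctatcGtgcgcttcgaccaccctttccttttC
Serpina1e: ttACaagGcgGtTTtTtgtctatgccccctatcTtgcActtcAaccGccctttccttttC
There are 6 differences in Serpina1a, 9 in Serpina1c, 10 in Serpina1d and 12 in Serpina1e. The summed level of the 5 copies, which does not depend on how reads were split among them, was 8.25 to 16.3 CPM in Ajcl and 33.1 to 55.7 CPM in ByJcl over both times. Whether reads that match several copies were counted is not given in the sources used here. Serpina1b took 73.3% to 81.7% of that sum in Ajcl and 84.7% to 88.2% in ByJcl.

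**Figure D2:**
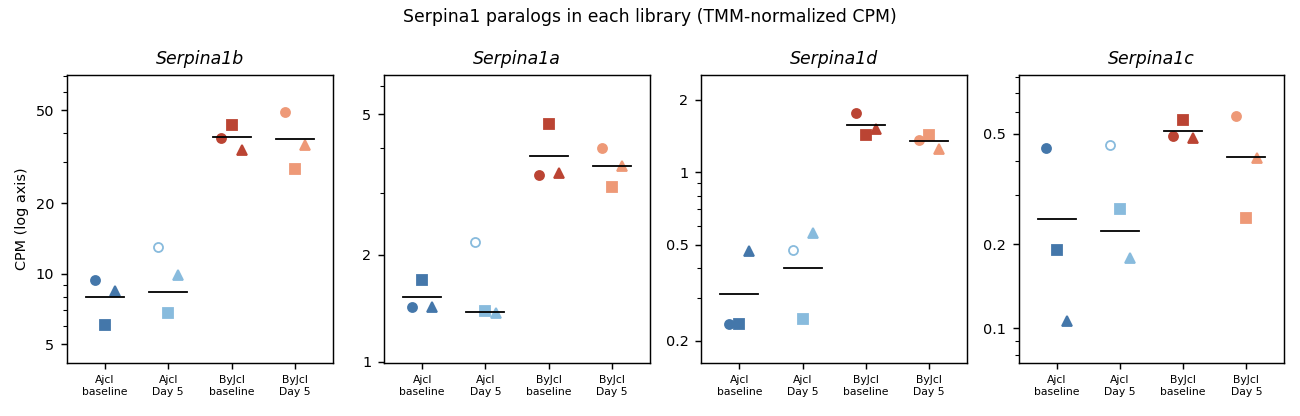
Panels plot TMM-normalized CPM on log axes for Serpina1b and the 3 other copies with the next highest levels, with symbols and bars as in the plot of the 10 genes. Serpina1a lies at 1.37 to 2.18 CPM in Ajcl and 3.10 to 4.68 CPM in ByJcl, and Serpina1b is the copy with the highest level in every library.

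Serpina1a was higher in ByJcl at baseline, by 1.34 log2 units (adjusted p = 0.0496, edgeR). This call was lost in each of the 11 fits with 1 library left out, and in 8 of 9 other alternatives. At Day 5 the value was 1.40 (adjusted p = 0.0716, edgeR). Serpina1d had log2FC of 2.34 (adjusted p = 0.0658, edgeR) and 1.75 (adjusted p = 0.153, edgeR), which did not pass that test, while DESeq2 called it at both times.

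Levels can be compared between genes only per length of exon, and on that scale the order of the members changed with substrain. Length was taken as all exonic bases that GENCODE lists for a gene, over all its transcripts. In Zfp809 this was 7506 bases against 1405 in its canonical transcript, while in Klhl21 both were 3987. The order therefore depends on that choice, and the annotation used for the counts is not known. In Ajcl at baseline, mean CPM per kilobase was 45.3 for Scarb2 and 22.3 for Arl2bp, followed by Klhl21 at 8.57, Otud3 at 8.34, Trim24 at 4.90 and Zfp970 at 4.02. Zfp809 at 2.80, Serpina1b at 1.96, Ubtd1 at 0.76 and Tmem215 at 0.59 came last. In ByJcl at baseline, Scarb2 again led at 82.1, before Zfp970 at 16.8, Klhl21 at 14.4, Serpina1b at 9.48, Ubtd1 at 9.38 and Trim24 at 8.68. Tmem215 at 6.20, Arl2bp at 5.40 and Zfp809 at 4.78 followed, and Otud3 at 0.38 came last. Neighbours in these orders that lay closer together than the larger SD between libraries were Klhl21 and Otud3, Trim24 and Zfp970, and Ubtd1 and Tmem215 in Ajcl. In ByJcl they were Zfp970 and Klhl21, Serpina1b, Ubtd1 and Trim24, and Tmem215, Arl2bp and Zfp809.

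Across the 10 genes the substrain differences at Day 5 had the sign and much of the size of those at baseline, 8 higher and 2 lower in ByJcl. By the edgeR test over all genes, which serves here as a description, 9 members passed at baseline and 7 at Day 5. The background is 0.159% of genes at baseline and 0.165% at Day 5, and nothing is read from the counts since the members were picked on them. Passing at both times were 6 members, namely Ubtd1, Otud3, Arl2bp, Serpina1b, Zfp970 and Tmem215, against 0.0823% of all genes, so the data do not place all 10 past the threshold at both times. Trim24, Klhl21 and Scarb2 passed at baseline alone and Zfp809 at Day 5 alone. With DESeq2 10 members passed at baseline and 9 at Day 5, beside 101 and 535 of all 17002 genes. Besides DESeq2, Klhl21 passed at Day 5 over all 12 libraries and without Ajcl Day 5 replicate 3, and Zfp809 passed at baseline without ByJcl Day 5 replicate 2. Over 20 alternatives, Ubtd1, Otud3 and Arl2bp passed in all 20 at both times. At Day 5 Tmem215 passed in 10, Zfp970 in 18, and Serpina1b and Zfp809 in 19, each of the 4 losing its call without Ajcl Day 5 replicate 2. Tmem215 also lost it without Ajcl baseline replicate 1 or 2, Ajcl Day 5 replicate 3, any of the ByJcl baseline libraries or ByJcl Day 5 replicate 3, and with a robust dispersion estimate. At baseline Tmem215 passed in 19, Trim24 in 17, Klhl21 in 14 and Scarb2 in 13. Baseline calls were lost without Ajcl baseline replicate 1 (Tmem215, Trim24, Scarb2), replicate 2 (Klhl21) or replicate 3 (Trim24, Klhl21, Scarb2), and without ByJcl baseline replicate 1 (Klhl21, Scarb2), replicate 2 (Klhl21) or replicate 3 (Trim24, Klhl21, Scarb2). Scarb2 also lost its baseline call without ByJcl Day 5 replicate 2 and over all 12 libraries. The substrains did not overlap in any member at either time over the 12 libraries, as in 3.69% of all genes.

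**Figure D3:**
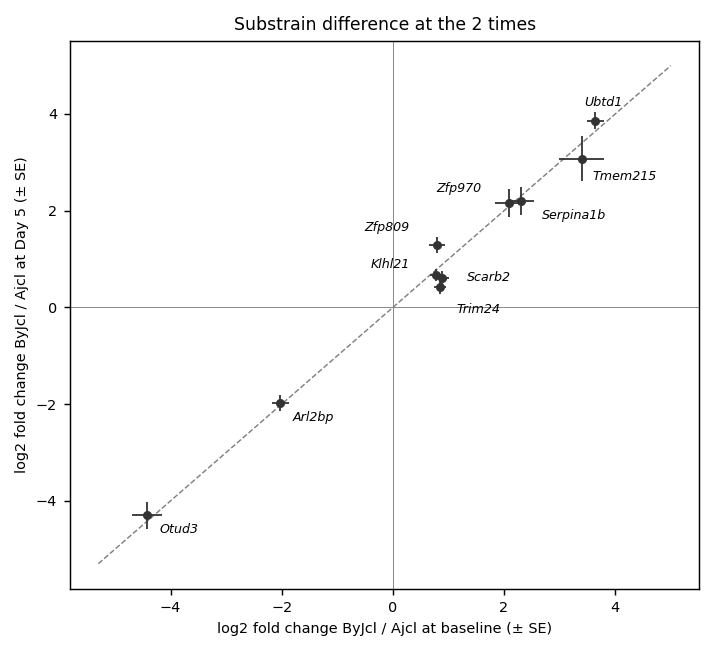
Each point is 1 of the 10 genes, with its log2FC of ByJcl against Ajcl at baseline on the horizontal axis and at Day 5 on the vertical axis, bars showing 1 SE and the dashed line equal values. Zfp809 lies above the line (0.79 and 1.29) and Trim24 below it (0.84 and 0.41).

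The change of the substrain difference from baseline to Day 5 is built from the values that chose the genes and is likewise a description. It ran from -0.43 (SE 0.17) in Trim24 to 0.50 (SE 0.22) in Zfp809, with 5 members above and 5 below 0. The median size was 0.17 on the log2 scale, beside 0.26 over all genes. Trim24 was also 1 of the 0.965% of genes whose Day 5 libraries all lay on one side of baseline in Ajcl and all on the other in ByJcl, in either direction, among the 11 libraries tested. Its Day 5 levels were above baseline in Ajcl and below it in ByJcl. With Ajcl Day 5 replicate 1 at 59.3 CPM included, its Ajcl groups overlapped.

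For each member, the gene outside the 10 whose level over the 12 libraries was most like it, by Pearson's r of log2(CPM + 0.5), is given as a description. Galk2 was nearest to Ubtd1 (0.994) and Serpina1b (0.97), and Ppp1r3a to Tmem215 (0.972), Klhl21 (0.971) and Zfp970 (0.962). For Otud3 (0.972) and Arl2bp (0.959), the members lower in ByJcl, it was H2-Q6. Zfp809 was nearest to Ptgir (0.97), Scarb2 to Trank1 (0.968) and Trim24 to Ctps2 (0.918). All these points share the split into 6 libraries of each substrain, which alone gives a high r to any pair of genes that differ by substrain.

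The mean effect of ADR over both substrains was the test least tied to the choice of genes. None of the 10 members passed it by edgeR, where 10.4% of all genes did. Zfp809 had an unadjusted p under 0.05, and it was the 1 member that passed with DESeq2, as did 2481 genes in all. Mean log2FC ran from -0.10 in Zfp970 to 0.35 in Zfp809, 7 positive and 3 negative. The median size was 0.08 in the members and 0.19 over all genes. For Ubtd1 the log2FC was 0.02 (95% interval -0.21 to 0.24) and for Otud3 0.05 (-0.35 to 0.45), while for Tmem215 the interval reached from -0.65 to 0.59. A change of 1 log2 unit lies outside the interval of each of the 10 genes.

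Zfp809 rose in ByJcl after ADR, by 0.60 log2 units (SE 0.14, adjusted p = 0.0248, edgeR), and was the 1 member of 10 that passed there, where 10.6% of all genes did. Its Day 5 libraries also enter the substrain difference that chose it. The call was lost without ByJcl baseline replicate 1 (log2FC 0.54, adjusted p = 0.088, edgeR), without ByJcl baseline replicate 2 (0.61, adjusted p = 0.0773, edgeR) and without ByJcl Day 5 replicate 2 (0.42, adjusted p = 0.086, edgeR). In Ajcl the Zfp809 log2FC was 0.10 (adjusted p = 0.894, edgeR). The mean over substrains was 0.35 (SE 0.11, adjusted p = 0.0632, edgeR), and it passed the threshold in 6 alternatives. These were DESeq2 (0.36, adjusted p = 0.0302), total counts (0.39, adjusted p = 0.0392, edgeR), all 12 libraries (0.36, adjusted p = 0.0428, edgeR), halved counts (0.36, adjusted p = 0.0496, edgeR), and leaving out ByJcl Day 5 replicate 1 (0.39, adjusted p = 0.0439, edgeR) or replicate 3 (0.39, adjusted p = 0.0447, edgeR). Podocyte markers fell in ByJcl in the same comparison, 8 of 8, from a summed 18570 to 20650 CPM at baseline to 7031 to 10300 CPM at Day 5, and their part in the Zfp809 value was not tested.

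In Ajcl no member passed the test of ADR by edgeR or DESeq2, and 0.312% of all genes did by edgeR. Scarb2 alone had an unadjusted p under 0.05, with 0.33 log2 units (SE 0.14, adjusted p = 0.474, edgeR). The Day 5 levels of 387 and 391 CPM were above every baseline library, but the library left out, at 302 CPM, was within the baseline range. In ByJcl the Scarb2 log2FC was 0.06 (SE 0.13). Trim24 had values of 0.16 (SE 0.13) in Ajcl and -0.27 (SE 0.11, adjusted p = 0.147, edgeR) in ByJcl. Scarb2, Klhl21, Arl2bp and Zfp809 had positive values in both substrains and Zfp970 negative ones.

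**Figure D4:**
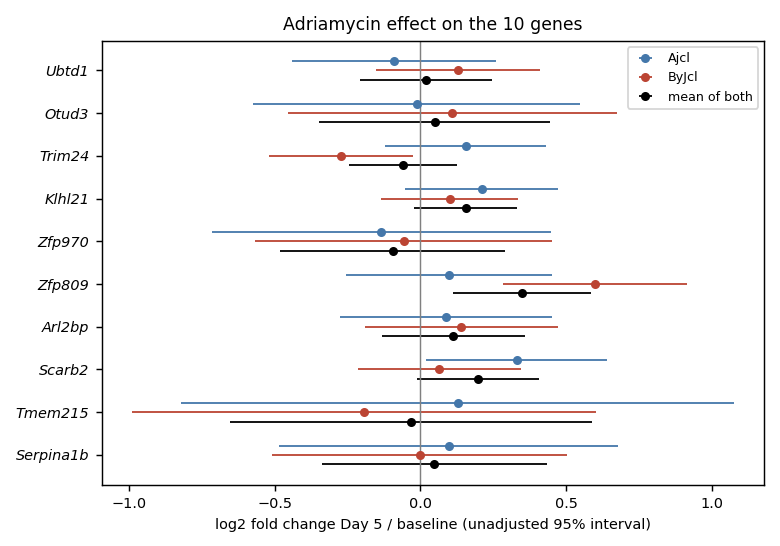
Points are log2FC of Day 5 against baseline for each of the 10 genes in Ajcl (blue), in ByJcl (red) and as the mean of both (black), and bars are unadjusted 95% intervals. Zfp809 in ByJcl, at 0.60, is farthest from 0, and the bars of Tmem215 are the widest.

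Neighbouring genes were examined for whether the substrain difference was shared along the chromosome. The 3 tested genes on each side of each member gave 60 distinct genes, with a median distance of 66.0 kb and a largest of 733 kb. Of these, 3 passed the substrain test at baseline (5.0%, beside 0.159% of all genes) and 1 at Day 5 (1.67%, beside 0.165%). Their median log2FC was 0.03 at baseline and -0.02 at Day 5.

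Pla2g5, a secreted phospholipase gene 30.0 kb from Otud3, passed at both times and went the opposite way. Ajcl libraries were at 4.05, 2.71 and 5.05 CPM at baseline and 4.58, 2.66 and 2.17 CPM at Day 5. ByJcl libraries were at 11.2, 10.2 and 9.59 CPM, then 10.8, 9.34 and 10.6 CPM, with no overlap at either time. The log2FC was 1.42 (SE 0.21, adjusted p = 0.028, edgeR) at baseline and 2.12 (SE 0.25, adjusted p = 0.00831, edgeR) at Day 5, whereas Otud3 was lower in ByJcl. With 1 library left out at a time, the Day 5 call was lost without Ajcl Day 5 replicate 2 (adjusted p = 0.143, edgeR) and held in the other 10 fits, while the baseline call held in 2 of 11 (adjusted p from 0.0371 to 0.24, edgeR).

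Ccdc158, 101 kb from Scarb2, was higher in ByJcl at baseline like its neighbour, with a difference of 1.38 log2 units (SE 0.21, adjusted p = 0.032, edgeR), and had 1.24 at Day 5 (adjusted p = 0.0822, edgeR). The baseline call held in 3 of 11 fits with 1 library left out (adjusted p from 0.0248 to 0.217, edgeR). The third was Serpina1a, 22.9 kb from Serpina1b, whose call held in 0 of 11 such fits (0.0606 to 0.308). The 42 neighbours of the other 7 members, Ubtd1, Trim24, Klhl21, Zfp970, Zfp809, Arl2bp and Tmem215, included none that passed by edgeR or DESeq2. By edgeR 4 of them had an unadjusted p under 0.05 at baseline and 9 at Day 5, beside 1418 and 2374 of all 17002 genes.

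**Figure D5:**
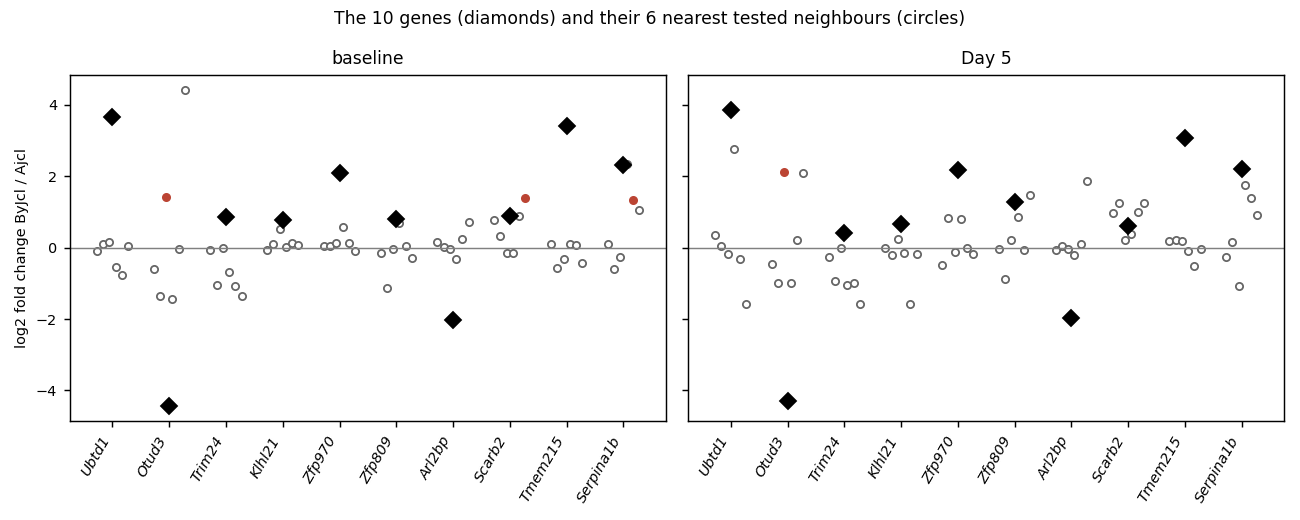
Black diamonds are the 10 genes and circles the 3 tested genes on each side of them in chromosome order, plotted by log2FC of ByJcl against Ajcl at baseline (left) and Day 5 (right), red where the test over all genes was passed. Most circles lie near 0. The open circle at 4.40 beside Otud3 is Htr6 (SE 1.89), picked out here after its value was seen.

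ADR called 6 of the 60 neighbours on average over substrains (10.0%, beside 10.4% of all genes). Near Scarb2 lie the chemokine genes Cxcl10 and Cxcl11, which rose by log2FC of 4.09 (adjusted p = 0.000659, edgeR) and 4.04 (adjusted p = 0.00934, edgeR), beside 0.20 for Scarb2 itself. Gm14403, Gm14322 and Gm14325, from the zinc finger stretch that holds Zfp970, fell by 1.07, 0.89 and 0.56 on the log2 scale (adjusted p = 0.00347, 0.0142 and 0.0165, edgeR). Zfp970 had a mean log2FC of -0.10. Dnaja1, a heat shock protein gene near Tmem215, fell by 1.43 (adjusted p = 0.0489, edgeR), with baseline levels from 134 to 918 CPM in ByJcl. Leaving out 1 library at a time, the calls of Cxcl10 and Gm14403 held in all 11 fits and that of Dnaja1 in 2. Those of Cxcl11 (adjusted p = 0.0683, edgeR), Gm14322 (0.091) and Gm14325 (0.104) were lost only without Ajcl Day 5 replicate 3. In ByJcl Ankrd2, next to Ubtd1, rose by 3.79 (adjusted p = 0.0213, edgeR) from at most 0.17 CPM, while Ubtd1 had 0.13. In Ajcl the Ankrd2 value was 0.51 (SE 0.98), and the difference between substrains did not pass (3.28, SE 1.34, adjusted p = 0.62, edgeR). The Ankrd2 call was lost without ByJcl baseline replicate 2 (adjusted p = 0.0838, edgeR) or ByJcl Day 5 replicate 2 (0.0634).

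Genes that work with the members were taken as 8 lists, which held 75 tested genes other than the members. The substrain test by edgeR called 1 of 75 at baseline (1.33%, Serpina1a, beside 0.159% of all genes) and 0 at Day 5 (beside 0.165%). By edgeR 4 of the 75 had an unadjusted p under 0.05 at baseline and 9 at Day 5. Over all 17002 genes the numbers were 1418 and 2374. DESeq2 called 3 at baseline (Serpina1a, Serpina1d and Serpina1e) and 3 at Day 5 (Klhl3, Serpina1a and Serpina1d), beside 101 and 535 of all genes. The mean effect of ADR called 4 higher and 3 lower (9.33%, near the 10.4% background).

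In the OTU deubiquitinase list, 1 of 14 genes other than Otud3 rose, Tnfaip3, which restrains NF-kB signalling, by 1.65 (adjusted p = 0.00346, edgeR). Otud3 had 0.05. Among 10 other genes of the ARL2 and ARL3 pathway, the transcription factor gene Stat3 rose by 0.54 (adjusted p = 0.00454, edgeR) and the ciliary GTPase gene Arl13b by 0.26 (adjusted p = 0.0434, edgeR). Pde6d, which encodes a carrier of lipid-modified proteins, fell by 0.38 (adjusted p = 0.038, edgeR). Arl2bp itself had 0.11 (adjusted p = 0.598, edgeR). With 1 library left out at a time, Tnfaip3 and Stat3 kept their calls in 11 of 11 fits, and Arl13b (adjusted p from 0.0276 to 0.162, edgeR) and Pde6d (0.0158 to 0.182) in 2 each. Over all 12 libraries Stat3 did not pass (adjusted p = 0.059, edgeR).

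Of 12 other genes in the list of lysosomal membrane and CD36 family genes, Scarb1, which encodes an HDL receptor, fell by 0.69 (adjusted p = 0.0236, edgeR). Tfeb, a regulator of lysosome genes, fell by 0.27 (adjusted p = 0.0476, edgeR). Scarb2 had 0.20 (adjusted p = 0.226, edgeR). The Scarb1 call was lost without Ajcl Day 5 replicate 2 (adjusted p = 0.0505, edgeR), Ajcl Day 5 replicate 3 (0.135) or ByJcl baseline replicate 2 (0.056), and the Tfeb call held in 2 of 11 such fits (0.0394 to 0.24).

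In the SERPINA cluster 1 of 7 other genes rose, the acute phase gene Serpina3n, by 4.16 (adjusted p = 0.00114, edgeR), a call that held in 11 of 11 fits, beside 0.05 for Serpina1b. Klhl13 was the 1 gene of 14 in the CUL3 and KLHL list that passed by edgeR anywhere, falling by 0.59 in ByJcl (adjusted p = 0.0332, edgeR), and this held in 5 of 11 fits (adjusted p from 0.0417 to 0.125, edgeR). Klhl21 had 0.10 there.

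No gene beside the member passed by edgeR in the TRIM24 family (3 genes), among the UBTD and UBE2D partners (4) or in the KRAB silencing machinery (12). In the mean effect of ADR 2, 0 and 1 of them had an unadjusted p under 0.05 by edgeR, beside 4222 of all 17002 genes, and DESeq2 called none there. DESeq2 called Uhrf1 of the silencing machinery in ByJcl after ADR. Trim28, the scaffold of that machinery, was at 164 CPM in both substrains at baseline, and its mean ADR log2FC was -0.17 (adjusted p = 0.099, edgeR). Cbx5, which encodes a heterochromatin protein, had baseline levels of 195 CPM in Ajcl against 202 CPM in ByJcl, and Trim33, a relative of Trim24, at 74.2 and 73.3 CPM. Ube2d3 and Ube2d2a, which encode conjugating enzymes of the family that UBTD1 binds, were at 272 and 94.3 CPM in Ajcl and 233 and 86.3 CPM in ByJcl.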

How the data were processed

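RNA-seq counts of glomeruli from 12 libraries were analysed as deposited. Per the labels and the study's methods, FastQC, Trimmomatic, STAR (genome GRCm39) and featureCounts were used in turn by the authors, who deposited raw whole-number counts per gene symbol, 26264 in all. The annotation and strand setting are not given in the sources used here. Between 77.1% and 82.9% of counts from 1 to 49 were even. If both mates of a pair were counted, a count is about 2 times the number of fragments, and halved counts were therefore tried.

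The 10 members and the gene lists were chosen with earlier results of these data known. Named genes are all members, neighbours and list genes called in a contrast, up to 4 of smallest adjusted p, and for lists with no call the 2 with the highest mean level. Further neighbours, copies beside a member and the markers Cd68 and Tagln were named after their values were seen.

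Counts were tested in R 4.3.3 with edgeR 4.0.16 (filterByExpr, TMM, quasi-likelihood, 1 coefficient per group, 11 libraries, 7 residual degrees of freedom). P-values were adjusted by Benjamini-Hochberg over 17002 genes, with 0.05 as the threshold. No fit was made for the members alone. DESeq2 1.42.0 was an alternative, beside other scalings and filters, all 12 libraries, a replicate block, halved counts and leaving out each library. The fit was also run on simulated data, with an outcome that is not given here. Replicate pairs gave a statistic of 47.1 to 289.9 per degree of freedom in a chi-square test, so no library was a copy. Same-numbered libraries come from different mice, and their deviations from the group means did not pair (r from -0.367 to 0.507). Coordinates, lengths and sequences are from GRCm39 with GENCODE, which matched 23897 symbols.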

Additional observations from a re-analysis of the deposited data

Results flagged for a closer look

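Trim24 was picked out because its libraries moved in opposite ways in the substrains. Among the 11 libraries tested, both Ajcl Day 5 libraries (70.2 and 66.1 CPM) lay above all 3 Ajcl baseline libraries, and all 3 ByJcl Day 5 libraries lay below all ByJcl baseline libraries. The change of the substrain log2FC from baseline to Day 5 was -0.43 (SE 0.17). This value is built from the contrasts by which the gene was chosen, so the difference was not tested for it as independent evidence. Over all genes 0 of 17002 passed the edgeR test of that change, 1363 had an unadjusted p under 0.05 and DESeq2 called 22, none of them a member. The Ajcl Day 5 library left out, at 59.3 CPM, was within the Ajcl baseline range, and over 12 libraries the value was -0.34. Such opposite placement occurred in 164 genes (0.965%).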

How the results depend on the processing

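The substrain log2FC of the members kept its sign in all 400 values under the 20 alternatives, 11 of which leave out 1 library, while several calls at a single time were lost, as given above and, for the replicate block, below. Counts over all genes moved more. With DESeq2, 301 genes passed for ADR in Ajcl, 101 and 535 for the substrain at baseline and Day 5, and 22 for its change, against 53, 27, 28 and 0. With no filter on low counts, 99 passed in Ajcl and 56 at Day 5. Over all 12 libraries 1197 passed in ByJcl (against 1800), 72 at Day 5 and 3 of the list genes (against 7). Leaving out 1 library gave 531 to 1816 genes for mean ADR (against 1774), 11 to 180 in Ajcl, 680 to 2056 in ByJcl, 12 to 29 at baseline, 9 to 218 at Day 5 and 0 to 5 for the change. It gave 1 to 3 neighbours called for the substrain at either time (against 3) and 3 to 6 list genes. The count for mean ADR was 531 without Ajcl Day 5 replicate 3, which leaves that group 1 library that is taken to vary like the others. Over all 12 libraries the calls of Pla2g5 at baseline, Serpina1a, Dnaja1, Stat3, Arl13b, Pde6d, Tfeb and Klhl13 were lost, and over the 9 alternatives other than leaving out 1 library Dnaja1 passed in 2, Tfeb in 3, Arl13b in 6 and Pde6d in 7. The causes were not tested.

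When replicate numbers entered as a block, 26 genes passed in Ajcl, Otud3 had a mean ADR log2FC of -0.037, and 1 neighbour passed for the substrain at either time, Pla2g5 at Day 5, the baseline calls of Pla2g5, Ccdc158 and Serpina1a being lost. Substrain calls were also lost for Klhl21 and Scarb2 at baseline and for Zfp970 and Tmem215 at Day 5, as were the mean ADR calls of Dnaja1, Arl13b and Tfeb, while Zfp809 kept its call in ByJcl (0.58, adjusted p = 0.0199, edgeR). The numbers do not pair the libraries.

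Mean and within-substrain ADR values near 0 changed sign for 7 members in 47 cases, the largest 0.26 in size and none called. Serpina1b in ByJcl was 0.015 with DESeq2 and with RLE size factors, 0.046 with total counts, 0.0096 with a minimum of 1 CPM, 0.014 over 12 libraries and 0.0098 with counts halved. Tmem215 had a mean of 0.0057 with total counts and 0.058 over 12 libraries, and Otud3 in Ajcl had 0.017 with total counts. With 1 library left out, means ran from -0.14 to 0.15 for Otud3, -0.12 to 0.18 for Serpina1b, -0.20 to 0.14 for Tmem215, -0.079 to 0.097 for Ubtd1 and -0.18 to 0.033 for Zfp970. In Ajcl values ran from -0.013 to 0.15 for Arl2bp, -0.12 to 0.088 for Otud3, -0.25 to 0.35 for Serpina1b, -0.16 to 0.37 for Tmem215, -0.29 to 0.058 for Ubtd1 and -0.27 to 0.073 for Zfp970. In ByJcl they ran from -0.26 to 0.33 for Otud3, -0.014 to 0.13 for Scarb2, -0.26 to 0.17 for Serpina1b, -0.53 to 0.15 for Tmem215 and -0.23 to 0.20 for Zfp970. Depth was not varied other than by halving the counts.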
